A study of Homo sapiens with 12 samples.

Results

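CDX1, CDX2 and CEACAM5 were followed across 3 human lines derived from colorectal cancers (HCT116, SW48, RKO) on 12 Affymetrix Human Gene 2.0 ST arrays. The genes were chosen by name: each is paired with 1 probe set of the array, and together they are 3 of the 14118 named genes measured. Every line is labelled p53 wild type, and each was either left untreated or exposed for 8 h to 10 µM Nutlin-3a, a small molecule that keeps MDM2 from binding p53 and so stabilises p53. This gives 6 groups of 2 arrays: untreated HCT116, HCT116 with Nutlin-3a, untreated SW48, SW48 with Nutlin-3a, untreated RKO and RKO with Nutlin-3a. The duplicates are not stated to be separate cultures, so the p-values measure only the spread between these samples, which may be technical. Each line is a single established line, and line, culture and any array batch that followed the line cannot be told apart.

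CDX1 and CDX2 are homeobox transcription factors that set and maintain intestinal identity in the gut epithelium, where they bind AT-rich sites in front of genes of enterocytes and goblet cells. CDX2 is used in pathology as a marker of intestinal origin, and colorectal tumours with poor differentiation often lose it. CEACAM5 encodes carcinoembryonic antigen, a glycoprotein anchored to the outer cell surface that mediates adhesion between cells and is measured in serum as a marker of colorectal cancer. Nutlin-3a is not a treatment aimed at any of the 3 genes; the p53 targets it is known to induce serve here as a check of the treatment.

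The sequence in front of the start site is shown for the 2 genes whose signal differed between lines, since it is the part of the gene where intestinal factors would bind. Both are RefSeq sequences of the 250 bases before the start (GRCh38.p14), read 5′ to 3′ on the gene's own strand. They lie at chr13:27969316-27969565 on the minus strand for CDX2 and at chr19:41708376-41708625 on the plus strand for CEACAM5. Capitals mark matches, on either strand, to TTTAT (the core of the CDX site, printed as ATAAA where it lies on the opposite strand), CACGTG (an E-box) or CTTTGA (a TCF/LEF core). CDX1 has no entry in the promoter table.
CDX2: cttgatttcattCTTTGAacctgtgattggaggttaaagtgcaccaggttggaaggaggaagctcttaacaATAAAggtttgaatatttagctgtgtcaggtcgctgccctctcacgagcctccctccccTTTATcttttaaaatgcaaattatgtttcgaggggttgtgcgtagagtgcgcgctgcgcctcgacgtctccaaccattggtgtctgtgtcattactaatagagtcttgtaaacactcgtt
CEACAM5: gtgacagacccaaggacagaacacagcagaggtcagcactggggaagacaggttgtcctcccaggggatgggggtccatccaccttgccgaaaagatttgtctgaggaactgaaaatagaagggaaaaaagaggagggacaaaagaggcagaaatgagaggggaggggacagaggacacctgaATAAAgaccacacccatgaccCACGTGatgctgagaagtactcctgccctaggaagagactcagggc

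The CDX core TTTAT occurred at 2 places before CDX2, starting 179 bases (opposite strand) and 120 bases before the start, and at 1 place before CEACAM5, 67 bases before it on the opposite strand. Of 35116 promoters of this length in the same table, 32.7% hold TTTAT, so the match sets neither gene apart. CTTTGA was found 238 bases before the CDX2 start and in 11.2% of all promoters. CACGTG was found 46 bases before the CEACAM5 start and in 6.3% of all promoters. GGGCGG, the core of the SP1 site, was searched on both strands as well and had no match in either window, against 42.6% of all promoters. The 2 windows also differed in CpG content, with 10 CpG dinucleotides and 45.2% G+C before CDX2 and 2 CpG and 53.2% G+C before CEACAM5. The median over all promoters was 11 CpG. A match describes letters only, and no binding was measured.

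The members' log2 signals, as the authors deposited them, showed 2 patterns. CDX2 and CEACAM5 were high in SW48 and lower in HCT116 and RKO, with or without Nutlin-3a, whereas CDX1 lay within a narrow band on all 12 arrays. With Nutlin-3a no member passed the test in any line. The plot of signals by array shows these patterns.

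CDX2, the homeobox factor used as the intestinal marker, read 9.63 and 9.57 on the arrays of untreated SW48 and 9.50 and 9.56 after Nutlin-3a. In untreated HCT116 its log2 signal was 7.42 and 7.34, and with Nutlin-3a 7.48 and 7.40. In untreated RKO it was 7.51 and 7.54, and with Nutlin-3a 7.36 and 7.46. The 4 SW48 arrays stood apart from the other 8, with a gap of 1.96 log2 units between the lowest SW48 array and the highest of the rest. Group means ran from 9.60 ± 0.04 (SD, n = 2) in untreated SW48 through 9.53 ± 0.045 in SW48 with Nutlin-3a to 7.38 ± 0.054 in untreated HCT116. Between these came untreated RKO at 7.52 ± 0.024, HCT116 with Nutlin-3a at 7.44 ± 0.06 and RKO with Nutlin-3a at 7.41 ± 0.069. Neighbours in this order overlapped only among the 3 lowest groups.

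CEACAM5, the adhesion glycoprotein, read 9.34 and 9.16 on the arrays of untreated SW48 and 9.12 and 9.21 after Nutlin-3a. In untreated HCT116 its log2 signal was 4.55 and 4.19, and with Nutlin-3a 4.54 and 4.44. In untreated RKO it was 4.66 and 4.67, and with Nutlin-3a 4.68 and 4.21. The 4 SW48 arrays again stood apart, here by 4.44 log2 units from the highest of the other 8. The group order was the same as for CDX2: untreated SW48 at 9.25 ± 0.12 (SD, n = 2), SW48 with Nutlin-3a at 9.16 ± 0.067, untreated RKO at 4.67 ± 0.0072, HCT116 with Nutlin-3a at 4.49 ± 0.071, RKO with Nutlin-3a at 4.44 ± 0.33 and untreated HCT116 at 4.37 ± 0.26. The 2 SW48 groups overlapped, neighbours among the 3 lowest groups did too, and the remaining neighbours in this order did not. Untreated HCT116 and Nutlin-3a-treated RKO were also the groups whose duplicates lay furthest apart for this gene.

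CDX1, the second homeobox member, read 5.87 and 5.88 in untreated HCT116 and 5.84 and 5.87 with Nutlin-3a. In SW48 its log2 signal was 5.89 and 5.66 untreated and 5.68 and 5.84 with Nutlin-3a. In RKO it was 5.62 and 5.85 untreated and 5.94 and 5.81 with Nutlin-3a. All 12 arrays fell between 5.62 and 5.94, a range of 0.32 log2 units, and every group overlapped with its neighbour in the order of means. The duplicates of untreated SW48 and of untreated RKO lay furthest apart, and their spread covered most of this range.

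**Figure D1:**
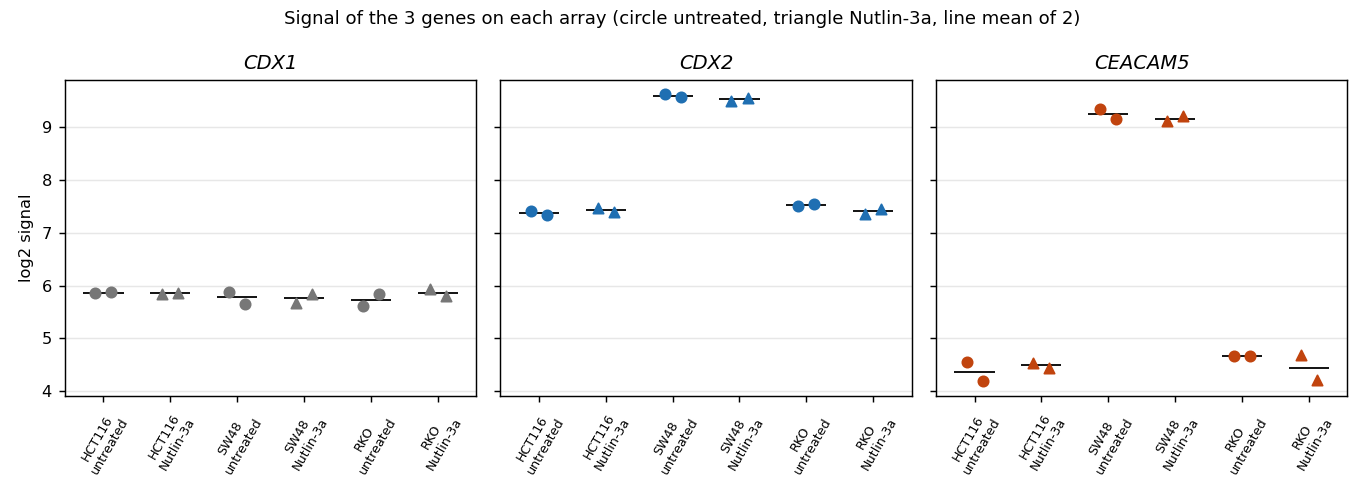
Deposited log2 signal (vertical axis) of CDX1, CDX2 and CEACAM5 on each of the 12 arrays, by group; points are arrays and the short bars are group means of 2 arrays. The 4 SW48 arrays sit between 9.50 and 9.63 for CDX2 and between 9.12 and 9.34 for CEACAM5, above all 8 arrays of HCT116 and RKO, while CDX1 lies between 5.62 and 5.94 on every array.

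The position of each signal among all 14118 genes of the same array gives it a scale, although a probe set's brightness also depends on its probes and no detection calls were used here. CDX2 lay at the 87.2 to 88.1 percentile in SW48 and at the 60.2 to 62.5 percentile in the other lines. CEACAM5 lay at the 83.0 to 85.1 percentile in SW48 and at the 16.1 to 24.4 percentile in the other lines. CDX1 stayed at the 38.5 to 43.3 percentile. For comparison, 13 genes of unrelated tissues (of 26 listed) averaged between 5.09 and 5.19 over the 6 groups. Of the 13, 0 differed between untreated lines (limma, adjusted p under 0.05). At an unadjusted p under 0.05 the counts were 1 for SW48 minus HCT116, 2 for RKO minus HCT116 and 0 for RKO minus SW48. Of all genes, 44.9%, 41.5% and 44.7% differed in these pairs, in the same order, at an adjusted p under 0.05. Whether the signals of CDX1, or those of CEACAM5 in HCT116 and RKO, lie above background was not tested.

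The comparison of untreated SW48 with untreated HCT116 asks how far the lines differ before treatment. Differences come from limma, fitted over all 12 arrays with Benjamini-Hochberg adjustment over all 14118 genes and called at an adjusted p under 0.05. Of the 3 members, 2 were higher in SW48, where 22.7% of all genes were higher and 44.9% were called in either direction. CDX2 was higher by 2.22 ± 0.065 (SE) on the log2 scale, 4.65-fold, with a 95% interval of 4.21 to 5.15-fold (limma, adjusted p = 2.32e-09). CEACAM5 was higher by 4.88 ± 0.15, 29.4-fold, with an interval of 23.2 to 37.3-fold (limma, adjusted p = 3.59e-09). CDX1 differed by -0.095 ± 0.10 (interval -0.32 to 0.13; limma, adjusted p = 0.501). Counted from the most positive difference, CEACAM5 ranked 14 and CDX2 ranked 140 among all genes, and by size in either direction they ranked 35 and 313. These are folds of array signal. The signal of CEACAM5 in HCT116 was not tested against background, nor its probes for reading the related CEACAM6. The fold of the transcript may therefore differ from that of the signal, and the interval covers the signals only.

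RKO stood to SW48 much as HCT116 did. Of the 3 members, 2 were lower in untreated RKO than in untreated SW48, where 21.1% of all genes were lower and 44.7% were called in either direction. CDX2 was lower, by -2.08 ± 0.065 on the log2 scale (4.21-fold; limma, adjusted p = 3.25e-09). CEACAM5 was lower, by -4.58 ± 0.15 (23.9-fold in signal, with the same limit; limma, adjusted p = 4.9e-09). CDX1 differed by -0.043 ± 0.10 (limma, adjusted p = 0.776). This comparison and the one before share the untreated SW48 arrays, so their sizes are not independent of each other.

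Between the 2 lines with low signals, 0 of 3 members passed the test (limma; 0 also at an unadjusted p under 0.05), while 41.5% of all genes were called between untreated RKO and untreated HCT116. CDX2 was 0.14 ± 0.065 higher in RKO (interval -0.0019 to 0.29; limma, adjusted p = 0.109), and its arrays did not overlap. For CEACAM5 the difference was 0.30 ± 0.15 (interval -0.043 to 0.64; limma, adjusted p = 0.154), again without overlap of the arrays. CDX1 differed by -0.14 ± 0.10 (limma, adjusted p = 0.327), and its arrays did not overlap either. The share of all genes without overlap in this pair was not counted, so the lack of overlap sets no member apart. In the Nutlin-3a arrays of the same lines, compared after the data had been seen, the differences were -0.026 for CDX2, -0.045 for CEACAM5 and 0.016 for CDX1, and none was called.

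**Figure D2:**
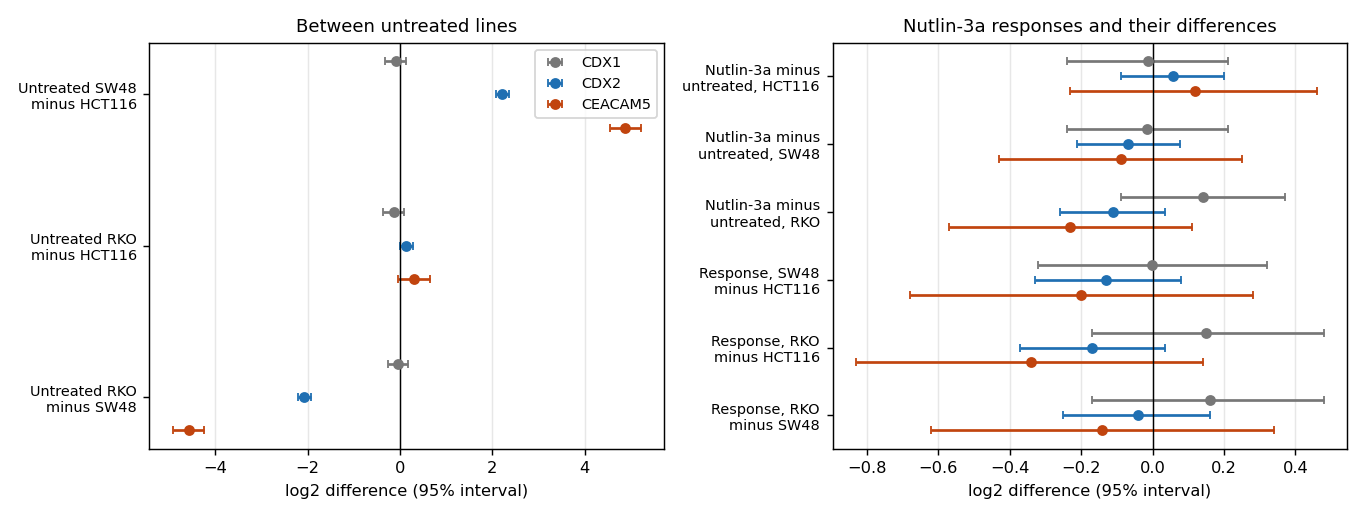
Differences in log2 signal with their 95% intervals (limma, 12 arrays) for the 3 genes: the 3 untreated line pairs (left) and, on an axis of narrower range, the Nutlin-3a responses in each line with the differences between those responses (right). CDX2 and CEACAM5 lie at 2.22 and 4.88 in SW48 minus HCT116 and at -2.08 and -4.58 in RKO minus SW48, and all intervals on the right include 0.

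Many genes were higher in SW48 than in both other lines, and the 2 members belong to a broad set. By the same test in both comparisons 13.5% of all genes (1902) were higher in untreated SW48, and in 13.6% (1915) the lowest SW48 array lay above the highest of the other 8. A smaller number was higher by as much: 89 genes, or 0.63%, stood above both lines by at least the amount of CDX2, and 9, or 0.0637%, by at least that of CEACAM5. The Nutlin-3a arrays, used in place of the untreated ones, gave 2.09 (SW48 minus HCT116; limma, adjusted p = 3.44e-09) and -2.12 (RKO minus SW48; limma, adjusted p = 2.89e-09) for CDX2. They gave 4.68 (limma, adjusted p = 5.03e-09) and -4.72 (limma, adjusted p = 4.24e-09) for CEACAM5. In bulk RNA of this kind, fewer cells with a transcript and less of it per cell cannot be told apart.

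The comparison of Nutlin-3a with untreated arrays gave no call for any of the 3 members. In HCT116, 0 of 3 were called against 5.11% of all genes, in SW48 0 of 3 against 3.12% and in RKO 0 of 3 against 2.02% (limma; 0 of 3 at an unadjusted p under 0.05 in each line). The largest estimate in HCT116 was CEACAM5 at 0.12 ± 0.15 (interval -0.23 to 0.46; limma, adjusted p = 0.748), beside CDX2 at 0.058 ± 0.065 (interval -0.088 to 0.20) and CDX1 at -0.013 ± 0.10 (interval -0.24 to 0.21). In SW48, the line with high signals, CDX2 gave -0.069 ± 0.065 (interval -0.21 to 0.076; limma, adjusted p = 0.679), CEACAM5 -0.087 ± 0.15 (interval -0.43 to 0.25; adjusted p = 0.842) and CDX1 -0.016 ± 0.10 (interval -0.24 to 0.21; adjusted p = 0.962). For CDX2 and CEACAM5 these intervals leave out a change of the size seen between SW48 and the other lines, and for all 3 members they leave room for smaller shifts. In RKO, CEACAM5 gave -0.23 ± 0.15 (interval -0.57 to 0.11; limma, adjusted p = 0.503), CDX2 -0.11 ± 0.065 (interval -0.26 to 0.034; adjusted p = 0.433) and CDX1 0.14 ± 0.10 (interval -0.087 to 0.37; adjusted p = 0.545). For CDX2 both Nutlin-3a arrays lay below both untreated arrays in SW48 and in RKO, an arrangement that 27.4% and 25.7% of all genes had in those lines.

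No difference between lines in a member's response passed the test of that difference (limma; 0 of 3 called and 0 at an unadjusted p under 0.05 in each of the 3 pairs of lines). Over all genes 0.212% were called for SW48 minus HCT116, 0.248% for RKO minus HCT116 and 0.361% for RKO minus SW48. The largest difference was that of CEACAM5 between RKO and HCT116, -0.34 ± 0.22 (limma, adjusted p = 0.567). For CDX2 it was -0.17 ± 0.092 in the same pair (limma, adjusted p = 0.503), and for CDX1 0.16 ± 0.14 between RKO and SW48 (limma, adjusted p = 0.749).

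Treatment and labels were checked with other genes. All 12 measured genes of a list of 20 p53 targets rose with Nutlin-3a in each line, where 3.08% (HCT116), 1.38% (SW48) and 1.23% (RKO) of all genes rose, with list medians of 1.39, 1.18 and 1.11 on the log2 scale. The list was chosen with earlier results of these data known, so this count is not an independent check. TP53INP1, GDF15 and SESN1 rose by 2.48, 1.54 and 1.88 in HCT116, by 1.73, 2.59 and 1.69 in SW48 and by 1.89, 1.33 and 1.44 in RKO. The extraction text of the labels speaks of thyroids, so 10 thyroid markers were listed. The 6 measured ones summed to between 29.7 and 31.5 log2 units on every array, with 30.5 to 31.0 in SW48. Of the 6, 2 were lower in untreated SW48 than in HCT116, where 44.9% of all genes were called in either direction. In RKO 2 were lower than in SW48, where 21.1% of all genes were lower. Of 13 housekeeping genes 6 were measured, and 5 were higher in untreated RKO than in untreated SW48 (44.7% of all genes called in either direction). Against untreated HCT116, 5 were lower in untreated SW48 (median of the 6: -0.39), where 44.9% of all genes were called in either direction. That shift runs opposite to those of CDX2 and CEACAM5, is smaller, and lay between -0.42 and -0.37 when arrays were scaled in 2 other ways; its part in the members' differences was not tested.

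The CDX genes belong to a list of 27 intestinal transcription factors, of which 15 were measured. Between untreated SW48 and HCT116 6 were higher and 2 lower in SW48 (44.9% of all genes called), with a list median of 0.31 against -0.00093 over all genes. In RKO 4 were higher and 6 lower than in HCT116 (41.5% of all genes called), and 2 were higher and 8 lower than in SW48 (44.7%). Higher in SW48 than in both other lines (13.5% of all genes) were CDX2, KLF4, KLF5, EHF and FOXA1, and GATA6 was lower than in both (12.7% of all genes); these 6 are named because of their values. KLF4, a zinc finger factor of differentiated epithelium, read between 8.84 and 9.09 on the 4 SW48 arrays and between 6.10 and 7.06 on the other 8, so that, like those of CDX2, its SW48 arrays stood apart. It was 2.14 ± 0.14 higher in SW48 than in HCT116 (limma, adjusted p = 7.65e-07) and -2.71 ± 0.14 in RKO minus SW48 (limma, adjusted p = 1.28e-07). KLF5, a factor of proliferating crypt cells, was 1.25 ± 0.073 higher in SW48 than in HCT116 (limma, adjusted p = 3.32e-07). CDX4, the other gene of the CDX family, was not called in any pair of lines: SW48 minus HCT116 was -0.11 ± 0.11 (limma, adjusted p = 0.457). None of the 15 was called with Nutlin-3a in any line (limma; 2 in HCT116, 1 in SW48 and 3 in RKO at an unadjusted p under 0.05). Of all genes 5.11% (HCT116), 3.12% (SW48) and 2.02% (RKO) were called there, so this count does not set the list apart.

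Of 22 genes of the CEACAM and PSG family, the immunoglobulin-like glycoproteins to which CEACAM5 belongs, 21 were measured. Of the 21, 2 were higher in untreated SW48 than in both other lines, CEACAM5 and CEACAM6, where 13.5% of all genes were. No pair of lines gave a call for 16 of the 21, against 37.9% of all genes. The list median for SW48 minus HCT116 was 0.016, against -0.00093 over all genes. CEACAM6, a surface protein of epithelium and granulocytes that adheres to CEACAM5, read 5.47 and 5.61 in untreated SW48, 5.37 and 4.95 with Nutlin-3a, and between 3.38 and 3.81 on the other 8 arrays. Its difference was 2.04 ± 0.12 for SW48 minus HCT116 (limma, adjusted p = 3.4e-07) and -1.91 ± 0.12 for RKO minus SW48 (limma, adjusted p = 5.41e-07). CEACAM5 and CEACAM6 are close in sequence, and whether probes of one also read the other was not tested. Higher in RKO than in HCT116 were CEACAM19 at 0.65 ± 0.17, PSG7 at 0.42 ± 0.10 and CEACAM7 at 0.42 ± 0.11; without the first untreated array of RKO the adjusted p became 0.0504 for CEACAM19 and 0.0556 for PSG7, without the first of HCT116 it became 0.0712 for CEACAM19 and 0.0653 for CEACAM7, and without the second of RKO 0.112 for CEACAM7. In the Nutlin-3a arrays of those lines CEACAM7 differed by -0.011 (limma, adjusted p = 0.954) and PSG7 by 0.18 (limma, adjusted p = 0.197). Means in untreated HCT116 and RKO were 2.87 and 3.29 for PSG7 and 3.21 and 3.63 for CEACAM7. These lie below the array medians of 4.97 to 5.05, and whether they lie above background was not tested. None of the 21 was called with Nutlin-3a (limma; 4 in HCT116, 1 in SW48 and 4 in RKO at an unadjusted p under 0.05), although with the arrays scaled by quantiles or centred on their medians 1 was higher in HCT116. With 5.11%, 3.12% and 2.02% of all genes called in HCT116, SW48 and RKO, this count does not set the family apart either.

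Differentiation and stem cell genes of the gut, 46 measured of 67 listed, were mixed in their direction. Between untreated SW48 and HCT116 9 were higher and 6 lower in SW48, where 44.9% of all genes were called. In RKO 3 were higher and 8 lower than in HCT116 (41.5% of all genes), and 2 were higher and 13 lower than in SW48 (44.7%). No pair of lines gave a call for 25 of the 46, against 37.9% of all genes. Their median difference for SW48 minus HCT116 was 0.038, near the -0.00093 of all genes. Higher in SW48 than in both other lines were 7 of the 46, a share near the 13.5% of all genes: PHGR1, DPP4, TSPAN8, LGR5, AXIN2, EPHB3 and TSPAN1. DPP4, a brush border peptidase, read 11.09 and 11.10 in untreated SW48, 7.68 and 7.61 in HCT116 and 5.14 and 5.33 in RKO, a difference of 3.45 ± 0.12 for SW48 minus HCT116 (limma, adjusted p = 8.54e-09). AXIN2, a Wnt target and feedback inhibitor, was higher by 3.25 ± 0.067 (limma, adjusted p = 2.11e-10), and LGR5, the receptor that marks crypt stem cells, by 2.91 ± 0.093 (limma, adjusted p = 4.23e-09). CA2, carbonic anhydrase of colonocytes, ran the opposite way to CDX2 and CEACAM5: it read 6.37 and 6.39 in untreated SW48 and between 8.91 and 9.14 in the other untreated lines. The 6 genes lower in SW48 than in HCT116 were CA2, KRT19, KRT20, KRT18, LCT and APOA4. For SW48 minus HCT116, KRT19 differed by -1.38 ± 0.22 (limma, adjusted p = 0.000411), KRT20 by -0.86 ± 0.064 (limma, adjusted p = 1.87e-06) and KRT18 by -0.75 ± 0.073 (limma, adjusted p = 1.55e-05).

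**Figure D3:**
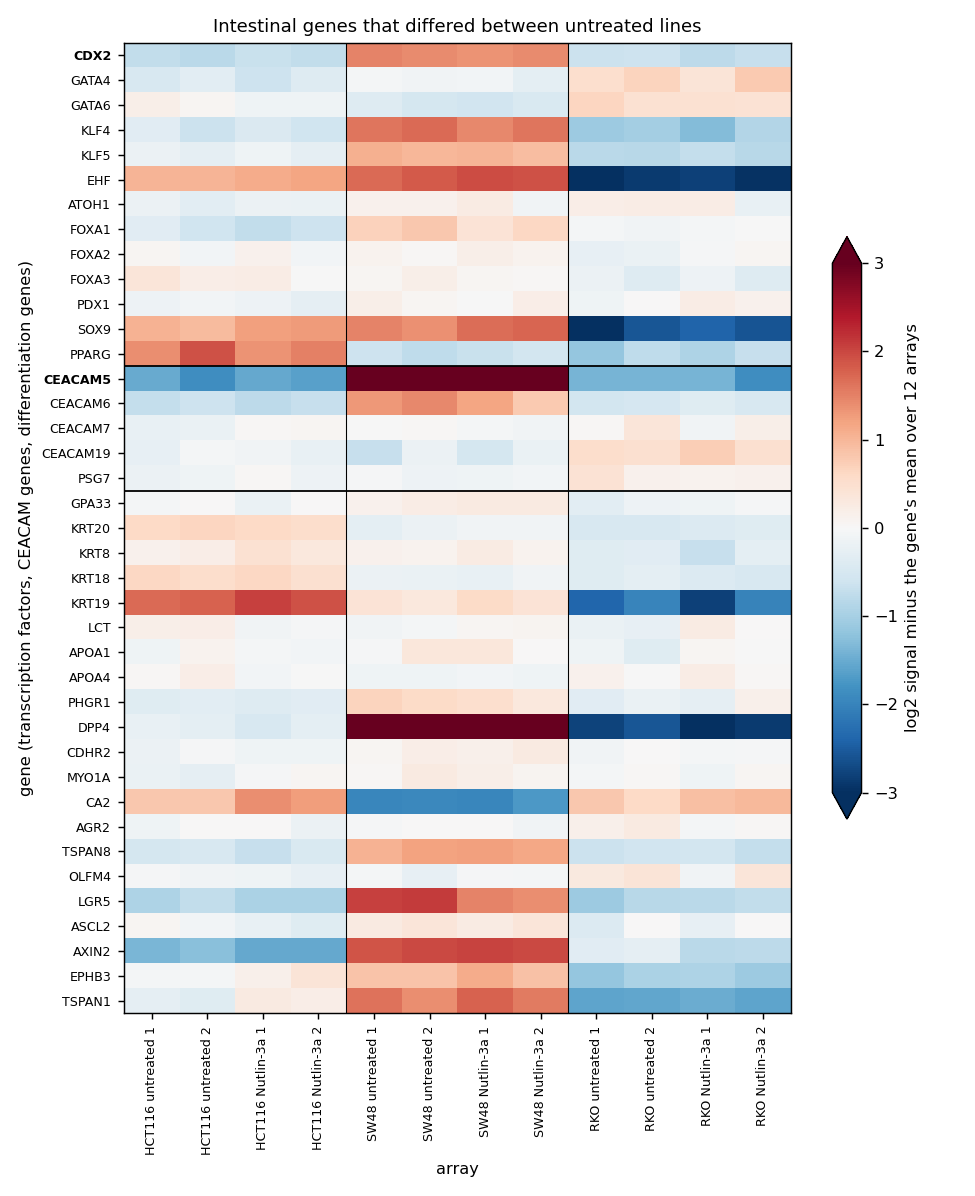
Log2 signal on the 12 arrays of those genes of the 3 gut-related lists that were called in at least 1 pair of untreated lines, each centred on its own mean over the arrays; colours run from blue (lower) to red (higher) and are clipped at 3 log2 units either way, and lines part the lists and the cell lines. CDX2 and CEACAM5 are red in the 4 SW48 arrays, together with CEACAM6, KLF4, DPP4, AXIN2 and LGR5, while CA2 is blue there. CDX1 was called in no pair and is not drawn.

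Named genes with the profile most like that of each member were found by the root mean square difference over the 12 arrays after each gene had been centred on its own mean, among 11730 protein-coding genes. HOXB9, a homeobox factor of posterior body regions, was nearest to CDX2 at 0.072 log2 units; it read 11.93 and 11.99 in untreated SW48, 9.69 and 9.60 in HCT116 and 10.00 and 9.96 in RKO. ZNRF3, a membrane ubiquitin ligase that limits Wnt receptors, followed at 0.09, then DYRK1B at 0.118, TMC5 at 0.139 and ENG, the endothelial co-receptor endoglin, at 0.14. Within 0.2 log2 units of CDX2 there were 18 genes, and the median gene lay at 1.02. For CEACAM5 the nearest genes were HPGD, the prostaglandin-degrading enzyme, at 0.186, HAS2, a hyaluronan synthase, at 0.223, BAMBI, a TGF-beta pseudoreceptor, at 0.234, GALNT8 at 0.271 and ZBTB7C at 0.282. HPGD read 9.31, 9.27, 9.10 and 9.19 on the SW48 arrays against at most 4.50 elsewhere, and 18 genes lay within 0.5 of CEACAM5. CDX1 was flat, and so were its nearest genes: VAV3 at 0.0608, TEKT4 at 0.0648, PLPP4 at 0.0649, ARMS2 at 0.0655 and GPR52 at 0.0669, with 5124 genes within 0.2. These distances rest on 12 arrays in 3 lines, which share the large line effect.

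**Figure D4:**
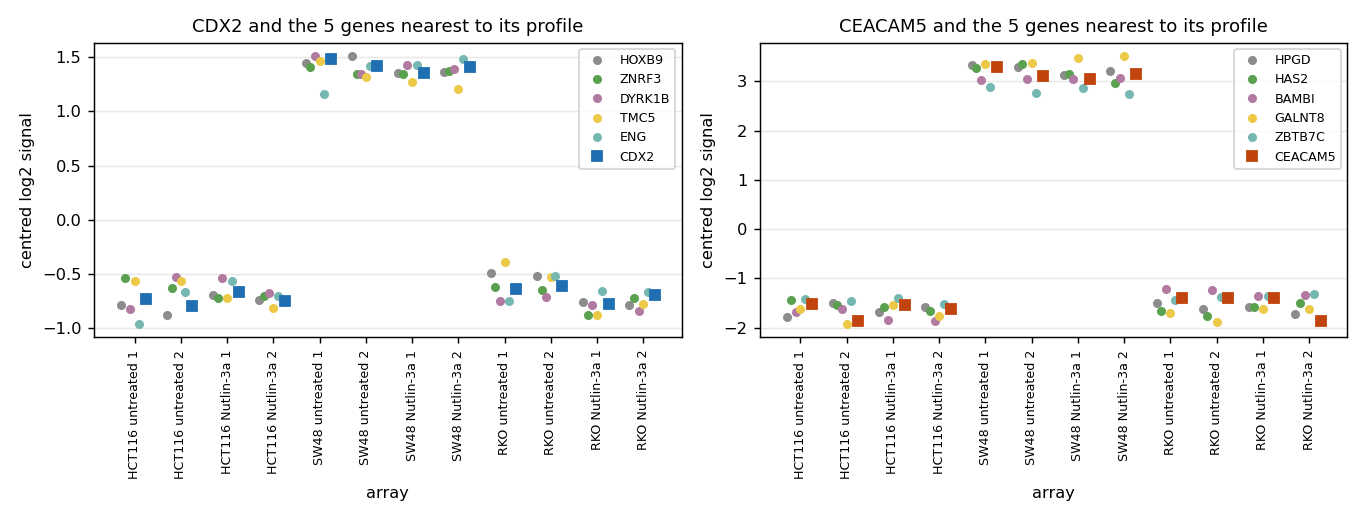
Log2 signal, centred on each gene's mean over the 12 arrays, of CDX2 (left) and CEACAM5 (right) as squares and of the 5 genes nearest to each as circles, by array; points are shifted sideways for legibility. All plotted genes are high on the 4 SW48 arrays and low on the 8 others.

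Neighbouring genes were compared to see whether the SW48 difference reached along the chromosome; they were added after the members' values had been seen. Of the 5 protein-coding genes on either side in RefSeq order, 9 of 10 were measured around CDX2 on chromosome 13, 10 of 10 around CEACAM5 on chromosome 19 and 5 of 10 around CDX1 on chromosome 5. Around CDX2 3 were higher and 2 lower in untreated SW48 than in HCT116. Of all genes 22.7% were higher and 44.9% were called in either direction. None of the 9 neighbours of CDX2 differed by more than 0.38 log2 units. The adjacent homeobox gene PDX1, which specifies pancreas and duodenum, differed by 0.24 ± 0.088 (limma, adjusted p = 0.0494). Around CEACAM5 1 gene was higher, CEACAM6 directly beside it, and 1 was lower, DMAC2. Apart from CEACAM6 the largest difference there was 0.63 in size. CEACAM7, on the other side of CEACAM5, differed by 0.23 ± 0.11 (limma, adjusted p = 0.138). Around CDX1 0 of the 5 measured were higher and 2 were lower in SW48. No neighbour of any member was called with Nutlin-3a, where 5.11% (HCT116), 3.12% (SW48) and 2.02% (RKO) of all genes were called.

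**Figure D5:**
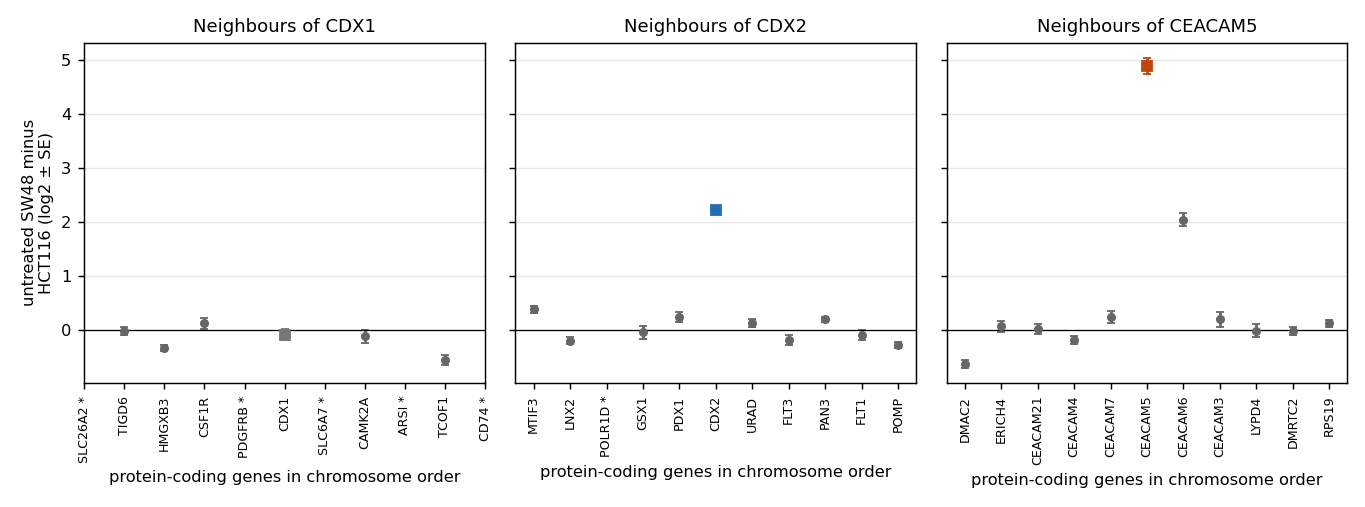
Difference in log2 signal between untreated SW48 and untreated HCT116 (± SE, limma) for each member (square) and the 5 protein-coding genes on either side (circles) in chromosome order; an asterisk marks a gene not analysed here. CDX2 (2.22) and CEACAM5 (4.88) rise above their neighbours, of which CEACAM6 (2.04) is the highest.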

How the data were processed

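RNA from 12 samples (6 groups of 2) was hybridised to 1 array each. The authors deposited log2 values per probe set; no source used here gives their normalization, log base or background correction, and log2 was taken from the range of 2.22 to 13.45. Array medians were 4.97 to 5.05, and GCOS is named in the submitters' processing notes. Of 37270 probe sets, 14530 were paired with 1 symbol in GEO's platform annotation, 0 with several and 22740 with none. All 14530 matched RefSeq. The highest-mean probe set stood for each of 14118 genes.

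Group means were fitted with limma 3.58.1 (R 4.3.3) over all 12 arrays (6 residual degrees of freedom) for 9 contrasts, with Benjamini-Hochberg adjustment, and the fit was tested on simulated data. Values were not filtered. Duplicates correlated at 0.997 to 0.998. Members and gene lists were chosen with earlier results of these data known. Named besides members were, for the 3 gut-related lists, the 3 largest called differences of each line pair and the genes called with Nutlin-3a. The 5 nearest profiles were named too, and others are named for their values. Genes of the other lists were mostly counted and not named, although some were called between lines. Lists of gastric (12 of 15 measured), immune (5 of 10), fibroblast (3 of 8) and endothelial markers (5 of 8) were also counted. In untreated SW48 minus HCT116 they held 0 higher genes, and lower ones were 1, 0, 1 and 0 (22.7% of all genes higher, 44.9% called). In RKO minus HCT116 (41.5% of all genes called) 0, 1, 1 and 0 were higher and 2, 1, 1 and 1 lower. In RKO minus SW48 (44.7%) 1, 1, 1 and 0 were higher and 2, 1, 0 and 1 lower. The immune marker CD68 was 1.98 ± 0.063 higher in RKO than in HCT116 (limma, adjusted p = 4.59e-09). Alternatives covered scaling, probe set choice, dim genes, the spread model, a replicate block, the groups fitted and each array left out. With 2 arrays a group, their number limits the precision.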

Additional observations from a re-analysis of the deposited data

Results flagged for a closer look

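The Nutlin-3a response differed between lines, by the test of the difference itself, for 2 of the 46 measured gut differentiation genes and 3 of the 12 measured p53 targets. None of CDX1, CDX2 and CEACAM5 was called. Over all genes 0.212% (SW48 minus HCT116), 0.248% (RKO minus HCT116) and 0.361% (RKO minus SW48) were called, so the lack of a call does not set the members apart. LGR5, the crypt stem cell receptor that was high in SW48 like CDX2, read 6.73 and 6.78 in untreated SW48 and 6.17 and 6.07 with Nutlin-3a, a response of -0.63 ± 0.093 (limma, adjusted p = 0.0059; 0.0559 without the second Nutlin-3a array of SW48). In RKO it read 3.59 and 3.85 untreated and 3.86 and 3.94 with Nutlin-3a, and the response in RKO minus that in SW48 was 0.81 (limma, adjusted p = 0.0413). These RKO signals lie below the array medians of 4.97 to 5.05, and whether they lie above background was not tested. AXIN2, the Wnt feedback inhibitor, read 9.48 and 9.56 in untreated RKO and 9.01 and 9.03 with Nutlin-3a, a response of -0.50 ± 0.067 (limma, adjusted p = 0.00525; 0.109 with the compared groups only). In SW48 it read 11.70 and 11.80 untreated and 11.85 and 11.80 with Nutlin-3a, and the response difference was -0.58 (limma, adjusted p = 0.0413). Both response differences missed the threshold in most alternatives, 14 of 20 for LGR5 and 16 of 20 for AXIN2, with adjusted p up to 0.159 and 0.162. Among the p53 targets the response of GDF15 was 1.05 larger in SW48 than in HCT116 (limma, adjusted p = 0.0199), a call lost in 6 of 20 alternatives (adjusted p up to 0.0982). In RKO minus SW48 it was -1.26 (limma, adjusted p = 0.00649), and that call was lost without the first Nutlin-3a array of SW48 (adjusted p = 0.0512) and kept in the other 19 alternatives. The response of TP53INP1 was -0.76 in SW48 minus HCT116 (limma, adjusted p = 0.0285), lost in 14 of 20 alternatives (adjusted p up to 0.137). That of TP53I3, an oxidoreductase induced by p53, was -1.09 in SW48 minus HCT116 (limma, adjusted p = 0.0186) and -0.82 in RKO minus HCT116 (limma, adjusted p = 0.0499), lost in 6 and 17 of 20 alternatives (adjusted p up to 0.0863 and 0.142).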

How the results depend on the processing

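The members' results were recomputed in 549 combinations of result and alternative, and all kept their side of the threshold. The sign differed in 22, none of them called. CDX2 ranged from 2.09 to 2.26 (SW48 minus HCT116) and CEACAM5 from 4.68 to 5.06. Same-numbered arrays did not deviate together (r from -0.13 to 0.05 over 15 pairs of groups), and the main fit used no pairing. These correlations cannot show how the duplicates were made. CEACAM7 in RKO minus HCT116 turned to -0.011 with the Nutlin-3a arrays. Counts over all genes moved more. With an intensity trend and robust prior the Nutlin-3a counts rose from 721 to 1228 (HCT116), 441 to 870 (SW48) and 285 to 760 (RKO), and with the compared groups only they were 208, 115 and 31. RKO gave 436 without dim genes and 188 with the replicate block. Testing all probe sets gave 10196 (SW48 minus HCT116), 9312 (RKO minus HCT116) and 10429 (RKO minus SW48) instead of 6334, 5852 and 6311. The response differences of 30, 35 and 51 genes (SW48 minus HCT116, RKO minus HCT116, RKO minus SW48) became 145, 114 and 157 with the trend, 17, 4 and 20 with the replicate block, and 8, 0 and 13 with the compared groups only; the first became 46 without dim genes and the third 32 over all probe sets. The 0 is from limma, which gave 1646 genes at an unadjusted p under 0.05 there. Leaving out 1 array in turn gave 260 to 692, 188 to 394 and 97 to 226 Nutlin-3a calls, and 8 to 27, 0 to 10 and 7 to 28 response differences, with 1192 to 1660 genes at an unadjusted p under 0.05 where limma called 0. The lone array of a group was then taken to vary like the others. Beside the fewer arrays or genes these settings hold, the cause was not tested.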

Other observations

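Some gut genes separated RKO from both other lines, unlike CDX2 and CEACAM5. EHF, an epithelial ETS factor, read 6.07 and 6.33 in untreated RKO against 10.20 and 10.20 in HCT116 and 10.89 and 11.02 in SW48, and it was -4.0 ± 0.091 in RKO minus HCT116 (limma, adjusted p = 4.28e-10). SOX9, a factor of the crypt base, read 5.82 and 6.48 in untreated RKO against 10.08 and 9.99 in HCT116 and 10.53 and 10.42 in SW48 (RKO minus HCT116 -3.89 ± 0.17; limma, adjusted p = 4.66e-08). KRT19, a keratin of simple epithelium, was lower in RKO than in HCT116 as well, by -3.91 ± 0.22 (limma, adjusted p = 2.82e-07). PPARG, a nuclear receptor of differentiated colonocytes, was high in HCT116 instead, at -2.34 ± 0.17 for SW48 minus HCT116 (limma, adjusted p = 1.81e-06) and -2.61 ± 0.17 for RKO minus HCT116 (limma, adjusted p = 1.01e-06).

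With Nutlin-3a 2 of the 46 differentiation genes rose in HCT116, near the 3.08% of all genes that rose there. CA2, which was lowest in SW48, went from 9.14 and 9.13 to 9.71 and 9.58 (0.52 ± 0.097; limma, adjusted p = 0.0153), and TSPAN1, a tetraspanin, from 5.41 and 5.33 to 5.97 and 5.90 (0.57 ± 0.098; limma, adjusted p = 0.0103). Both calls were lost without either untreated array of HCT116 or its first Nutlin-3a array, with adjusted p up to 0.10 for CA2 and 0.0734 for TSPAN1.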
